A study of Mus musculus with 56 samples.

Results

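Hif1a and 9 genes of glucose uptake and glycolysis (Slc2a1, Hk2, Pfkfb3, Pfkfb4, Pfkp, Ldha, Pgk1, Pkm, and Aldoa) were followed through ChIP-seq peak lists of mouse bone marrow-derived macrophages (BMDMs). A peak belonged to one of the 10 genes when the list named that gene as the one with the nearest start site. Of 20352 gene names in the 56 lists, these 10 held 2318 of 1610519 peaks. All cells were wild-type BMDMs from mice of 8 to 12 weeks, differentiated for 6 days in L929-conditioned medium (labelled MCSF, the macrophage growth factor). In the first experiment, cells were left untreated (ctrl) or received IL-4 at 20 ng/ml for 1 hr. In the second, cells received neither agent (ctrl/ctrl), IL-4 for 24 hr (IL-4 PT/ctrl), LPS for 1 hr (ctrl/LPS, 100 ng/ml in the labels), or IL-4 for 24 hr and then LPS for 1 hr (IL-4 PT/LPS). Each antibody was measured in 2 samples of each group, which gave 28 groups over 9 antibodies. The labels do not say whether replicates came from separate mice, so p-values measure the spread between these samples.

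HIF-1α, the product of Hif1a, is the oxygen-regulated subunit of the HIF-1 transcription factor. It is made continuously and destroyed in the presence of oxygen, and when stable it binds DNA with ARNT at a short core sequence, ACGTG or GCGTG. Its best known targets encode the glucose transporter GLUT1 (Slc2a1) and most enzymes that turn glucose into lactate. In macrophages, LPS raises Hif1a transcription through NF-κB and shifts the cells toward glycolysis, whereas IL-4 acts through STAT6 and is linked to oxidative metabolism.

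The members cover the length of the pathway. Hk2 (hexokinase) traps glucose in the cell, Pfkp (phosphofructokinase, platelet type) commits it to glycolysis, and Pfkfb3 and Pfkfb4 make and break the sugar phosphate that activates that step. Aldoa (aldolase), Pgk1 (phosphoglycerate kinase), and Pkm (pyruvate kinase) act in the lower part, and Ldha (lactate dehydrogenase) makes lactate. The core was searched on both strands in RefSeq promoters (GRCm38.p6, the assembly of mm10), each of 250 bases before and 50 after the start. It was present in 13 of 15 promoters of the 10 genes (86.7%), against 43.8% of 32851 promoters of all genes. Both promoters without it belong to genes (Pkm and Aldoa) that hold it in another promoter. Overlapping promoters of Aldoa hold the same core, which was counted in each. Known HIF-1 targets are among the 10 genes, so the share is a description and not a test. The 250 bases upstream of 4 starts are shown, 5′ to 3′ on the gene's strand with the core on either strand in capitals, because they cover the regulator, the transporter, and the enzymes with the closely spaced cores. All 4 genes lie on the plus strand.
Hif1a promoter, chr12:73907617-73907866: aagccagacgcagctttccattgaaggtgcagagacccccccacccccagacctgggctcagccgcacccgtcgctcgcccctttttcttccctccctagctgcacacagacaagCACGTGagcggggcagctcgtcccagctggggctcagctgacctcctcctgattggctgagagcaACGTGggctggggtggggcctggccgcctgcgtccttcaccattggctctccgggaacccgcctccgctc
Slc2a1 promoter, chr4:119108495-119108744: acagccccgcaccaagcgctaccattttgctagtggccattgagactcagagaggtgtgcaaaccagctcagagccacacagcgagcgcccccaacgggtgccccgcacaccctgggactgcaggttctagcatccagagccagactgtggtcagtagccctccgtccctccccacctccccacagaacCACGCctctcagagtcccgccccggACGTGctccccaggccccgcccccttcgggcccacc
Ldha promoter, chr7:46845554-46845803: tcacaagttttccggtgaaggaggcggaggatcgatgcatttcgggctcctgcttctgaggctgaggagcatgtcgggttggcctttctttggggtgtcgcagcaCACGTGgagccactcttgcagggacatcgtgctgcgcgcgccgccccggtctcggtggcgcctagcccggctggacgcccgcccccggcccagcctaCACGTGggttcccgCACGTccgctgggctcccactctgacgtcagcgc
Pgk1 promoter, chrX:106186850-106187099: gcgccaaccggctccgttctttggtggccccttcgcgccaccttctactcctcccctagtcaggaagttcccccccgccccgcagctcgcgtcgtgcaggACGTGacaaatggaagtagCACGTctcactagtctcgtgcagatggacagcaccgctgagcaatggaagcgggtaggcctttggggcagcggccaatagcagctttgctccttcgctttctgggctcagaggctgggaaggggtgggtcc
A match describes letters, not binding, and HIF-1α was not among the antibodies analysed here.

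All antibodies except H3K27Ac were scored by MACS2 on the −log10 scale of its p- or q-values, so a score rises with sequencing depth as well as with binding. H3K27Ac was scored as normalized tags per region of fixed size. The lists hold no read totals, so the depth of a sample is unknown, and its peak count is given instead. The count ran from 9556 to 38955 for p65 and from 14476 to 22149 for RNAPII-pS5 in the LPS experiment, with the fewest RNAPII-pS5 peaks in ctrl/LPS. Of the p300 lists, ctrl replicate 1 stood apart with 44787 peaks (up to 69360 in the others) and a median score of 11.04 (up to 19.23). In all 4 lists of RNAPII-pS2 made after 1 hr, peaks are named for the treatment opposite to the label, so no direction was drawn from them. Of the macrophage markers, Csf1r, Itgam, Cd68, Lyz2, Mertk, and Emr1 had an RNAPII-pS5 peak in all 12 lists, although a promoter peak was listed only for Cd68 (9 lists), Mertk (5), and Emr1 (1). Spi1 had no peak under that name. Of markers of other cells, Cd3d and Ms4a1 had a peak in 12 lists, S100a8 in 9, Klf1 in 8, and Cd79a in 7, while Cd3e, Cd3g, Ly6g, Col1a1, Pdgfra, and Hbb-b1 had none. Of these, S100a8 alone had a promoter peak, in 3 lists, and the part of other cells in the results was not tested.

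The 10 genes differed in where their peaks lay. Hif1a held 409 peaks, of which 306 were intergenic, and Hk2 held 399, Pfkp 327, and Pfkfb3 326. Slc2a1 had 238 peaks, Ldha 183, Pfkfb4 158, Pkm 136, Aldoa 77, and Pgk1 65. Over all members, 1018 peaks were intronic, 969 intergenic, and 204 at a promoter. Of the 103 Hif1a peaks not called intergenic, 57 lay in introns of the transcript NM_008856, which belongs to Prkch, the neighbour upstream of Hif1a. Sums of peak scores per gene, which leave out intergenic peaks, therefore mix Prkch introns with the Hif1a promoter. Pkm had no H3K27Ac region in its name, and Aldoa had no HDAC3 peak.

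The first comparison asked what 1 hr of IL-4 did to RNAPII at these genes. RNAPII-pS5, the form that marks initiating polymerase, was present at all 10 genes, and no gene passed the test. The score of a gene, summed over its peaks, was compared with limma on a log2 scale over all genes, and a gene was called at an adjusted p of at most 0.05. By that test 120 of 11958 genes (1.0%) were called. Pfkfb3 had the largest difference of the 10. Its RNAPII-pS5 score was 194.4 and 144.6 in the ctrl replicates and 101.0 and 103.3 after IL-4. Both IL-4 samples lay below both ctrl samples, but the log2 change of −0.69 ± 0.15 (SE) had an adjusted p of 0.238 in limma. Pfkp scored 49.7 and 34.1 in ctrl and 55.8 and 51.4 after IL-4 (log2 change of 0.41, adjusted p = 0.396). Slc2a1 scored 136.2 and 117.5 in ctrl against 150.6 and 131.0 after IL-4, and these ranges overlapped. Hif1a, with 129.8 and 95.3 in ctrl and 85.8 and 102.6 after IL-4, overlapped as well. Of the 10 genes 1 (Pfkfb3) had an unadjusted p of at most 0.05, as had 1532 of all genes.

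RNAPII-pS2, the elongating form, was tested at 9 of the 10 genes in the same experiment. Pkm had 96.1 and 97.7 in the libraries labelled ctrl and 128.4 and 151.9 in those labelled IL-4. Pfkfb4 had 28.0 and 40.2 in the libraries labelled ctrl against 17.5 and 22.3 in those labelled IL-4. Neither gene overlapped between the labels, and neither passed limma (adjusted p of 0.565 and 0.473). No gene of 8687 was called (0.0%), with 1247 at an unadjusted p of at most 0.05 and none of them a member.

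H3K27Ac, the mark of active promoters and enhancers, was called higher at some regions of these genes after 1 hr of IL-4 and lower at others, at a share close to that of all regions. Regions near Slc2a1, Pfkfb4, Pfkp, and upstream of Hif1a gained acetylation, and regions of Pfkfb3, Hk2, and Ldha lost it. Over gene sums, Pfkfb3 fell from 489.6 and 513.6 to 306.9 and 320.1 normalized tags, with no overlap (log2 change of −0.69 ± 0.06, adjusted p = 0.01). Hk2 fell less, from 812.3 and 767.2 to 643.4 and 648.1 (log2 change of −0.30, adjusted p = 0.0367). These were the 2 of 9 tested members that passed, against 2987 of 11362 genes (26.3%). Hif1a went from 203.8 and 199.9 to 248.7 and 284.3 without passing (log2 change of 0.39, adjusted p = 0.0558). When each of the 4 samples was left out in turn, Pfkfb3 kept its call once (adjusted p from 0.0492 to 0.0622, kept without ctrl replicate 1) and Hk2 never did (0.104 to 0.144).

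Tested as single regions, 14 of 36 member regions passed (5 higher and 9 lower), against 11650 of 28929 regions (40.3%), of which 5362 were higher (18.5%) and 6288 lower (21.7%). Region tests of this mark were added after seeing the data, because a peak at the edge of a promoter can change its annotation from list to list. A region spanning the start of Slc2a1 (chr4:119108721-119109782) went from 110.5 and 110.9 to 190.4 and 184.0 normalized tags. Every IL-4 value exceeded every ctrl value, and the log2 change was 0.81 ± 0.06 (adjusted p = 0.00415). The region 1.1 kb upstream of Pfkfb4 (chr9:108990288-108991419) went from 424.8 and 387.1 to 602.3 and 606.8 (log2 change of 0.63 ± 0.07, adjusted p = 0.00982).

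A region in intron 12 of Prkch, at −142.7 kb from Hif1a (chr12:73764663-73765683), had the largest relative gain. It went from 23.6 and 28.7 to 55.3 and 61.1, a log2 change of 1.21 ± 0.13 (adjusted p = 0.00851). A region at −26.2 kb from Hif1a moved from 118.8 and 118.7 to 133.8 and 134.3 (log2 change of 0.23, adjusted p = 0.0492). The Hif1a promoter itself had 180.2 and 171.2 in ctrl and 193.4 and 209.0 after IL-4 and was not called. In Pfkp, a region in intron 7 at 29.8 kb went from 44.8 and 37.5 to 62.9 and 71.5 (log2 change of 0.76, adjusted p = 0.02).

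Pfkfb3 lost acetylation at 4 regions, all in intron 1 of its transcript NM_001177758. The region at −22.1 kb went from 62.0 and 65.3 to 26.5 and 22.2 (log2 change of −1.34, adjusted p = 0.00564). The region at −11.0 kb went from 101.9 and 100.6 to 44.0 and 49.3 (log2 change of −1.07, adjusted p = 0.00411). The region at 504 bp from a start fell from 83.5 and 87.8 to 37.4 and 46.9, and that at 18.5 kb from 86.0 and 93.4 to 60.9 and 62.8 (log2 changes of −0.98 and −0.48). In all 4 the IL-4 samples lay below the ctrl samples. Distances for Pfkfb3 are to the nearest of its 3 listed starts.

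Hk2 lost acetylation at −30.6 kb, from 60.2 and 65.6 to 32.1 and 30.5 (log2 change of −0.95, adjusted p = 0.00533). It also lost acetylation at −23.3 kb, from 361.9 and 338.0 to 245.4 and 239.2 (log2 change of −0.48), and in intron 7 at 32.9 kb, from 48.8 and 50.9 to 32.1 and 31.2 (log2 change of −0.60). Upstream of Ldha, the regions at −14.7 kb and −6.8 kb fell by 0.59 and 0.40 on the log2 scale. They went from 241.9 and 219.3 to 149.7 and 144.8 and from 284.3 and 292.7 to 205.6 and 215.6. The Ldha promoter held 386.2 and 360.8 in ctrl and 363.2 and 358.6 after IL-4, and the difference did not pass. With 1 sample left out, the number of calls was 8 and 6 (without ctrl replicate 1 and 2) and 10 and 8 (without IL-4 replicate 1 and 2). Slc2a1, Hif1a at −142.7 kb, Pfkfb3 at −11.0 and −22.1 kb, and Hk2 at −30.6 kb passed in all 4 of these fits. Hif1a at −26.2 kb, Pfkfb3 at 18.5 kb, Hk2 at −23.3 kb, and Ldha at −6.8 kb passed in none.

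**Figure D1:**
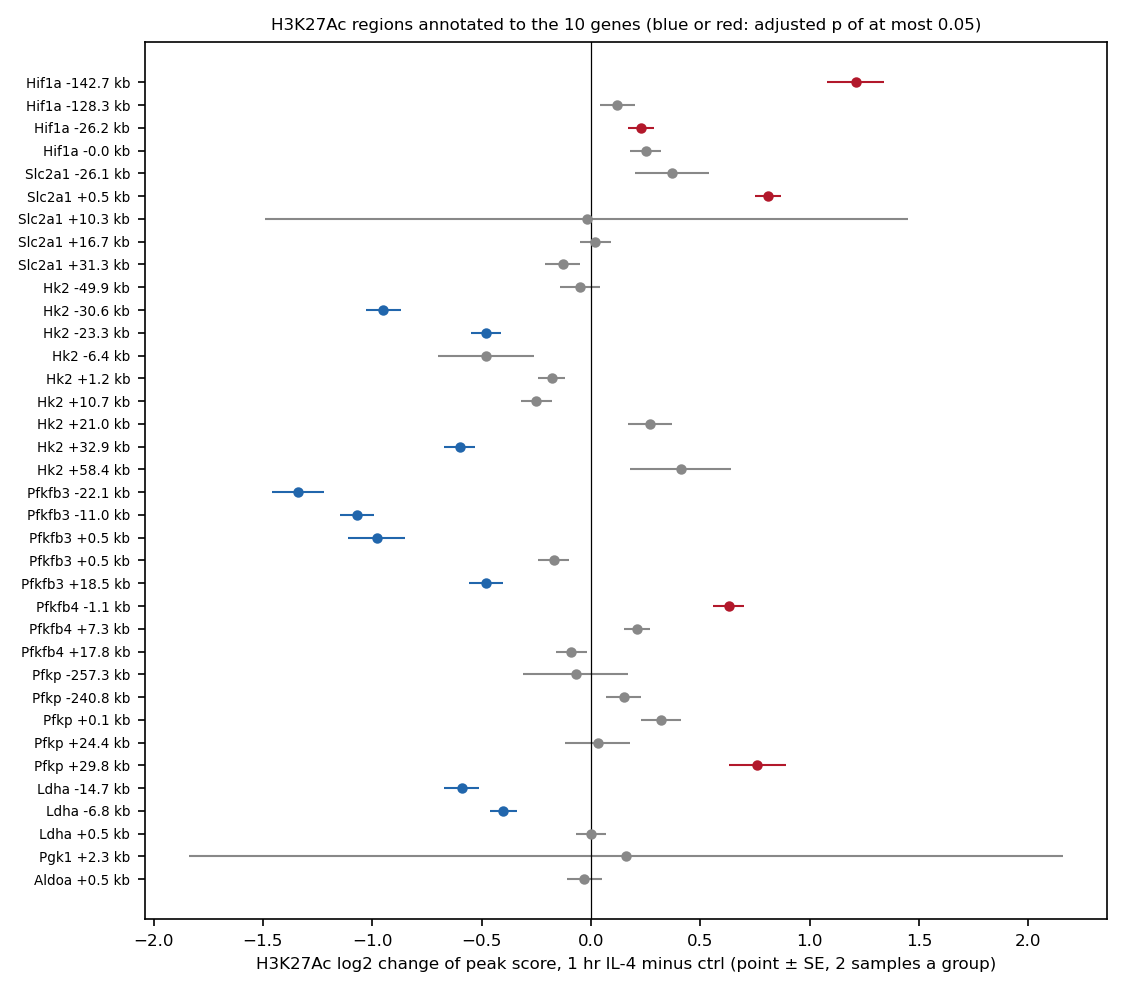
Log2 change of H3K27Ac signal after 1 hr of IL-4 at the 36 tested regions of the 10 genes, named by gene and distance from the start, with points ± SE (2 samples a group) and calls in red (higher) or blue (lower). Hif1a at −142.7 kb (1.21) lies farthest right of the calls and Pfkfb3 at −22.1 kb (−1.34) farthest left, and the wide bars are regions missing from a list.

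p300, an acetyltransferase that writes H3K27Ac, had peaks at a few of these genes in the IL-4 samples alone. Of 110 regions of the members 95 could be tested, and none passed in limma (17 had an unadjusted p of at most 0.05), against 1656 of 67229 regions (2.46%) called and 16804 at that unadjusted p. The highest IL-4 scores without a ctrl peak were in intron 1 of Slc2a1, at 3.5 kb, a region named after its values were seen. No peak was listed in either ctrl sample, and the IL-4 samples scored 71.4 and 54.4 (adjusted p = 0.0517). At 1.9 kb in the same intron the IL-4 samples scored 14.0 and 12.6, again with no ctrl peak (adjusted p = 0.109). Hif1a had the same pattern at −40.7 kb, with 45.6 and 33.0 after IL-4, and Pfkp at −4.0 kb (24.8 and 19.5) and −253.1 kb (27.8 and 20.8). A log2 change against absent peaks depends on the value set for absence, so none is given here. Without ctrl replicate 1, the shallower list, these 5 regions passed, all higher, and 3605 of 66364 regions were called (5.43%). That fit sets a single ctrl sample, assumed to vary like the IL-4 samples, against IL-4, and the 5 regions entered the test only through their IL-4 peaks, so their calls are a description. Without ctrl replicate 2, 10 member regions passed, and without either IL-4 replicate none did.

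At the Prkch intron that gained H3K27Ac (−142.5 kb from Hif1a by its p300 peak), p300 was absent in ctrl replicate 1, scored 12.0 in replicate 2, and scored 49.6 and 56.8 after IL-4 (adjusted p = 0.0798). The Pfkfb3 region at −11.1 kb, where H3K27Ac fell, scored 43.1 and 132.2 in ctrl and 48.6 and 62.9 after IL-4, and the groups overlapped. Each member's strongest p300 region was present in all 4 lists. That of Hif1a, at −128.3 kb, scored 73.7 and 197.4 in ctrl and 194.2 and 178.2 after IL-4. That of Pfkfb4, at −1.9 kb, scored 34.7 and 58.2 in ctrl and 124.2 and 114.9 after IL-4, with no overlap and no call. The strongest regions of Pfkp (−240.8 kb), Slc2a1 (18.7 kb), Hk2 (−23.2 kb), Pkm (−2.8 kb), Pgk1 (2.4 kb), Ldha (−12.0 kb), and Aldoa (at −71 bp) scored between 11.2 and 162.2.

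**Figure D2:**
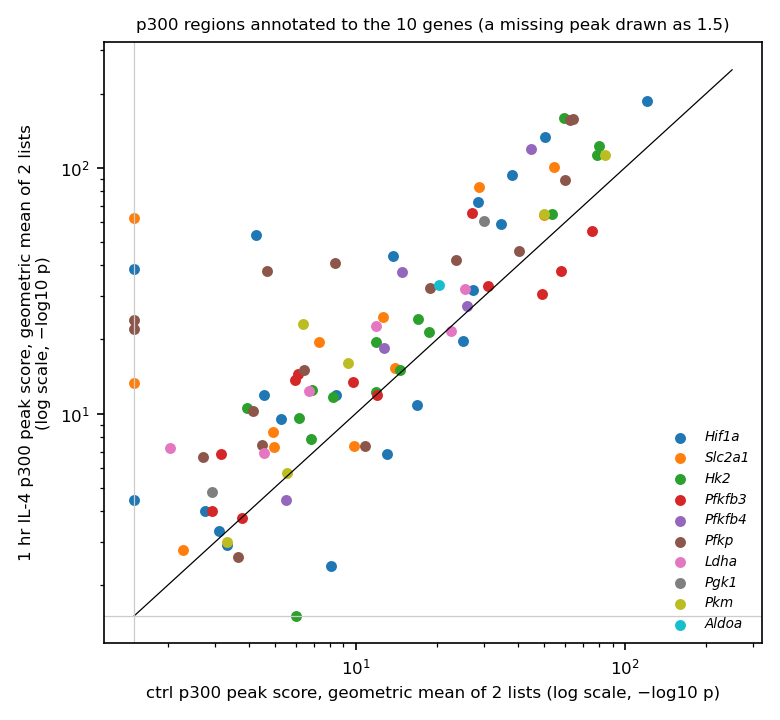
p300 score (−log10 p, log axes, geometric mean of 2 lists) at the tested regions of the 10 genes, ctrl on the horizontal and IL-4 on the vertical axis, with the diagonal marking equality and a missing peak drawn at 1.5. Most points lie above the diagonal, and the topmost point on the left line is Slc2a1 at 3.5 kb (71.4 and 54.4 after IL-4). Scores are drawn without centring, and ctrl replicate 1 had the lowest median score (11.04). After centring, 47 of the tested regions were higher with IL-4 and 48 lower.

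STAT6, the factor that IL-4 activates, binds sites of the form TTCNNNNGAA, and other STAT proteins prefer TTCNNNGAA. Windows of 300 bases around the p300 regions were searched for both. The STAT6 form was in 12 of 95 member windows (12.6%) and in 13.3% of 67225 windows of all genes. Of the 7394 windows with a p300 peak in both IL-4 lists and in neither ctrl list it was in 42.8%, and of the 6 such windows of the members it was in 3. The other form was in 10 member windows (10.5%) and in 11.7% of all windows. It was in 21.7% of the 7394 windows and in 3 of the 6. The windows of the IL-4 gains of Slc2a1 and Hif1a are shown on the plus strand with either form in capitals, because they cover the transporter and the regulator. Those of Pfkp had the same p300 pattern and are not shown. The windows of Slc2a1 at 1.9 kb and of Hif1a held the STAT6 form. That of Slc2a1 at 3.5 kb held only the other form.
Slc2a1 intron 1 at 1.9 kb, chr4:119110525-119110824: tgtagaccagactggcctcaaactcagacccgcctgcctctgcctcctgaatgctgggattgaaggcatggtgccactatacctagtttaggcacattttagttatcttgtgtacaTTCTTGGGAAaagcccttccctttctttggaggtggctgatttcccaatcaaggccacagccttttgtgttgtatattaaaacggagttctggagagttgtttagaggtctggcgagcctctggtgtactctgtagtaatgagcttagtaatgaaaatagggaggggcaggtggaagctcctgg
Slc2a1 intron 1 at 3.5 kb, chr4:119112049-119112348: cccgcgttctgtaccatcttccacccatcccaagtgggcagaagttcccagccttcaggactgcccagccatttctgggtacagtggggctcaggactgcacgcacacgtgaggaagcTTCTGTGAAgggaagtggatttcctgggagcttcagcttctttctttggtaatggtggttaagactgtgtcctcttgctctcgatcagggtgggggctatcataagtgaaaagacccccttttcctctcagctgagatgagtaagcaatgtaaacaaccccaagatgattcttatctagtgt
Hif1a at −40.7 kb, intergenic, chr12:73867043-73867342: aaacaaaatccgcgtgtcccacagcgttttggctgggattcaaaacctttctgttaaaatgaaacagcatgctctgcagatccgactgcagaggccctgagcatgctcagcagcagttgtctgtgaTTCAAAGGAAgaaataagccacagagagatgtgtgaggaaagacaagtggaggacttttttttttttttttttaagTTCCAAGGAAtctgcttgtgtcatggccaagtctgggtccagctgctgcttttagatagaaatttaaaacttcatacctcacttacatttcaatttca
STAT6 was not among the antibodies analysed here.

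PU.1, the factor that sets macrophage identity, bound all 10 genes, and its binding did not pass the test anywhere. Of 129 member regions 89 were tested, with 7 at an unadjusted p of at most 0.05, and of 67996 regions none was called (0.0%) and 8260 reached that unadjusted p. The strongest member region was at −26.2 kb from Hif1a, with 108.8 and 71.9 in ctrl and 94.5 and 134.2 after IL-4. Slc2a1 had 100.2 and 29.2 in ctrl and 89.8 and 68.6 after IL-4 at 18.6 kb, where p300 was also strongest. Hk2 followed with 63.3, 34.5, 63.8, and 75.4 at 10.2 kb. The ctrl and IL-4 samples overlapped at Hif1a and Slc2a1 but not at Hk2, and ctrl replicate 2 was the lowest sample in all 3.

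The histone deacetylases HDAC1, HDAC2, and HDAC3, which remove acetyl groups, shared the −128.4 kb region of Hif1a. HDAC3 scored 25.1 and 24.5 in ctrl and 31.2 and 24.5 after IL-4 there, HDAC2 scored 21.3, 22.4, 22.5, and 18.9 in the same order, and HDAC1 scored 13.1, 15.4, 9.0, and 13.6. The labels give the HDAC3 antibody the same catalogue number as the H3K27Ac antibody, and which antibody was used was not tested. HDAC1 was strongest near the start of Hk2 (at 947 bp), with 25.0 and 14.0 in ctrl and 14.0 and 17.0 after IL-4. No member region was called for HDAC1 (41 of 57 tested), HDAC2 (34 of 53), or HDAC3 (18 of 30), and none of 27384, 24751, and 12567 regions of all genes was called either (0.0% each). At an unadjusted p of at most 0.05 there were 5, 4, and 3 member regions and 3836, 3440, and 2427 regions of all genes.

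The second experiment asked how LPS acted on RNAPII at these genes, and whether IL-4 given before changed it. With LPS alone, Pfkp gained both forms of RNAPII and Slc2a1 gained RNAPII-pS2. Pkm lost both forms when IL-4 preceded LPS. Counted per gene, LPS alone raised RNAPII-pS5 at 1 of 10 members (Pfkp) and RNAPII-pS2 at 2 (Slc2a1 and Pfkp), with no member called lower. For RNAPII-pS5, 2557 of 10610 genes were called in either direction (24.1%), 749 higher and 1808 lower. For RNAPII-pS2, 2577 of 11640 genes were called (22.1%), 1089 higher and 1488 lower. The 24 hr IL-4 treatment raised each form at 1 member (Pfkp). For RNAPII-pS5, 748 genes were called (7.05%), 427 higher and 321 lower. For RNAPII-pS2, 1311 genes were called (11.3%), 683 higher and 628 lower. IL-4 before LPS, compared with LPS alone, lowered each form at 1 member (Pkm). Here 903 genes were called for RNAPII-pS5 (8.51%), 614 higher and 289 lower. For RNAPII-pS2, 783 genes were called (6.73%), 489 higher and 294 lower. The 3 comparisons share samples and 1 estimate of the spread. With LPS alone, the members' shares called in either direction were below those of all genes, but their shares called higher were not.

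Pfkp had no RNAPII-pS5 peak in either ctrl/ctrl sample. It scored 15.9 and 16.2 in IL-4 PT/ctrl, 18.7 and 10.7 in ctrl/LPS, and 31.2 and 18.5 in IL-4 PT/LPS. Every treated sample therefore exceeded the untreated ones (adjusted p of 0.00326 for LPS and 0.00918 for 24 hr IL-4, both resting on the value set for a missing peak). Its RNAPII-pS2 score was 7.5 in ctrl/ctrl replicate 1, with no peak in replicate 2. The other groups had 46.1 and 39.6 (IL-4 PT/ctrl), 29.5 and 23.2 (ctrl/LPS), and 57.5 and 44.7 (IL-4 PT/LPS), with adjusted p of 0.024 for 24 hr IL-4 and 0.0362 for LPS. In the 1 hr experiment, whose RNAPII-pS5 lists hold more peaks, Pfkp had a promoter peak in all 4 samples (27.6 to 41.5), so a missing peak means only that none passed the cut-off of that list. The call for RNAPII-pS2 with LPS was kept in 2 of the 8 fits that each left out 1 sample.

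Most peaks behind these sums lay in Pfkp introns. RNAPII-pS2 at 24.4 kb was listed in every sample but ctrl/ctrl, with 9.0 and 9.9 in IL-4 PT/ctrl and 5.9 and 6.8 in ctrl/LPS. At 16.1 kb it scored 11.4 and 7.6 in IL-4 PT/ctrl and 9.7 and 5.7 in ctrl/LPS, and at 29.9 kb it scored 20.6 and 14.6 in IL-4 PT/ctrl. RNAPII-pS5 in intron 1, at 1.6 kb, scored 7.5 and 9.4 in IL-4 PT/ctrl and 10.7 and 5.6 in ctrl/LPS.

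Slc2a1 scored 13.0 and 13.3 for RNAPII-pS2 in ctrl/ctrl and 18.1 and 25.8 in IL-4 PT/ctrl. It scored 47.4 and 29.2 in ctrl/LPS and 45.6 and 35.1 in IL-4 PT/LPS. All 4 LPS samples exceeded all 4 samples without LPS, and the log2 change with LPS alone was 1.41 ± 0.33 (adjusted p = 0.0289). The region called within the gene was in intron 2, at 17.0 kb, where RNAPII-pS2 was 3.9 in 1 ctrl/ctrl sample and unlisted in the other, 7.0 and 6.6 in IL-4 PT/ctrl, 23.9 and 20.5 in ctrl/LPS, and 20.2 and 23.6 in IL-4 PT/LPS. RNAPII-pS5 at Slc2a1 scored 16.9 and 15.0 in ctrl/ctrl and 20.2 and 19.8 in ctrl/LPS and was not called. The RNAPII-pS2 call ended in 3 of the 8 fits that left out 1 sample, with adjusted p up to 0.115.

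Pkm carried 40.2 and 46.8 of RNAPII-pS5 in ctrl/ctrl, 34.1 and 46.2 in IL-4 PT/ctrl, 27.6 and 32.1 in ctrl/LPS, and 4.0 and 6.4 in IL-4 PT/LPS. Only the last group stood below the rest. Against ctrl/LPS the log2 change was −2.94 ± 0.36 (adjusted p = 0.0103). Its RNAPII-pS2 score was 34.6 and 35.2 in ctrl/ctrl, 42.4 and 43.5 in IL-4 PT/ctrl, 47.8 and 36.9 in ctrl/LPS, and 12.4 and 11.4 in IL-4 PT/LPS. The log2 change was −1.86 ± 0.26 (adjusted p = 0.0127). By a test of the difference between the LPS responses with and without IL-4, Pkm was lower for RNAPII-pS5 (−2.75 ± 0.51, adjusted p = 0.0442) and for RNAPII-pS2 (−2.32 ± 0.37, adjusted p = 0.0274), and Pfkp was lower for RNAPII-pS5 (−3.04, adjusted p = 0.0486), a value that rests on its missing peaks. For that test 429 genes (4.04%) and 599 genes (5.15%) were called. Leaving out any 1 sample ended each of these 3 calls, and in 4 of the 8 such fits it ended the Pkm calls against ctrl/LPS (adjusted p up to 0.0571 and 0.0768).

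For IL-4 before LPS, called Pkm regions lay near the start for RNAPII-pS5 and at the 3′ end for RNAPII-pS2. With 24 hr IL-4 alone, RNAPII-pS2 near the start (chr9:59656583-59656969) was called lower. That call was kept in 4 of the 8 fits that left out 1 sample (log2 change from −3.08 to −2.7, adjusted p up to 0.13). Near the start, RNAPII-pS5 at 381 bp scored 6.7 and 12.8 in ctrl/ctrl and 13.7 and 8.5 in ctrl/LPS and had no peak in either IL-4 PT/LPS sample. At 1.1 kb it scored 2.7 and 4.1 in ctrl/LPS and again had none with IL-4 PT/LPS. Each of these RNAPII-pS5 calls was kept in 2 of the 8 fits that left out 1 sample (adjusted p up to 0.175 and 0.181). At the 3′ end, past the polyadenylation site where polymerase terminates, RNAPII-pS5 was 23.8 and 28.4 in ctrl/ctrl, 20.3 and 31.3 in IL-4 PT/ctrl, 11.2 and 11.7 in ctrl/LPS, and 4.0 and 6.4 in IL-4 PT/LPS. RNAPII-pS2 there was 17.5 and 18.8, 39.0 and 31.8, 16.9 and 15.4, and 2.9 with no peak in the second sample, in the same order of groups. Confined to peaks inside the annotated gene, which drops the 3′ peak, the RNAPII-pS2 change was −1.19 with an adjusted p of 0.268, its difference between LPS responses was 0.07, and the RNAPII-pS5 change was −4.05 with an adjusted p of 0.00477.

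Pfkfb3 scored from 40.6 (IL-4 PT/ctrl) to 112.7 (ctrl/LPS) for RNAPII-pS2 and was not called. RNAPII-pS5 at Pfkfb3 was 76.6 and 57.9 in ctrl/ctrl and 27.8 and 31.8 in IL-4 PT/ctrl, and 28.5 and 46.7 in ctrl/LPS and 14.8 and 19.5 in IL-4 PT/LPS. In both pairs the IL-4 samples were below those without IL-4, but neither difference passed (adjusted p of 0.111 and 0.0563). Pfkfb4 had the opposite order with LPS, with 4.1 and 9.2 in ctrl/LPS and 26.9 and 26.7 in IL-4 PT/LPS, also short of the threshold (adjusted p = 0.0608). Hk2 scored 20.0 and 23.3 in ctrl/ctrl and 25.7 and 35.4 in ctrl/LPS for RNAPII-pS5. Ldha (22.9 to 40.3), Aldoa (23.7 to 39.4), and Pgk1 (up to 10) showed no call per gene in either form. Tested as a region, RNAPII-pS2 at Aldoa (chr7:126799571-126800137) was called lower with LPS alone and with 24 hr IL-4. These calls were kept in 1 and 4 of the 8 fits that left out 1 sample (adjusted p up to 0.18 and 0.132).

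Hif1a itself scored 18.1 and 11.0 for RNAPII-pS5 in ctrl/ctrl and 4.6 and 12.9 in ctrl/LPS. It had no peak in 1 IL-4 PT/ctrl sample and 9.7 in the other, and 8.3 and 23.0 in IL-4 PT/LPS. Its RNAPII-pS2 score was 10.3 and 15.0 in ctrl/ctrl, 2.9 and 5.5 in IL-4 PT/ctrl, 29.4 and 32.5 in ctrl/LPS, and 25.0 and 30.2 in IL-4 PT/LPS. All LPS samples exceeded all samples without LPS, and the log2 change of 1.22 with LPS alone had an adjusted p of 0.0712. Most of that score came from 1 peak in intron 10 of Prkch, at −151.9 kb, which was absent in ctrl/ctrl and scored 29.4 and 28.1 in ctrl/LPS. The Hif1a promoter peak of RNAPII-pS2, at −434 bp, was listed in ctrl/ctrl alone (5.9 and 5.4). Tested as a region, it was called lower with LPS alone and with 24 hr IL-4, each in 6 of 6 fits that left out 1 sample. It entered the test only through ctrl/ctrl, so these calls rest on the filter and on the value set for a missing peak.

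**Figure D3:**
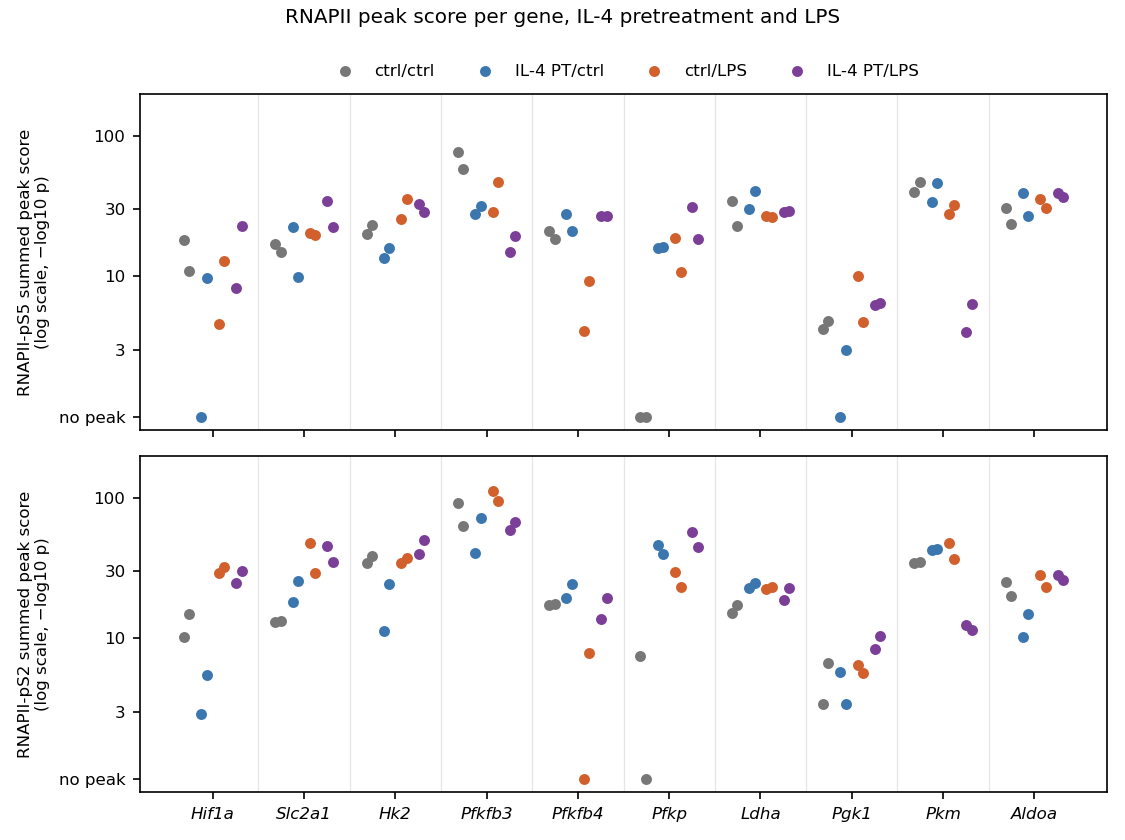
Summed RNAPII-pS5 (upper) and RNAPII-pS2 (lower) peak scores of the 10 genes on log axes in the 4 groups of the LPS experiment, with each point a sample. Pkm drops to 4.0 and 6.4 for RNAPII-pS5 in IL-4 PT/LPS, and Pfkp sits at the no-peak line in both ctrl/ctrl samples.

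The 3 genes whose RNAPII-pS5 pattern over the 8 samples was most like that of Hif1a were Cops7a, Eif4e2, and Zfp658, with Pearson correlations of 0.919, 0.903, and 0.889 among 3597 genes with a peak in all 8 samples. This is a description without a test. It leans on the IL-4 PT/ctrl sample in which Hif1a had no peak, and on a Hif1a score that includes the Prkch intron. Among the members the correlations with Hif1a ran from −0.315 (Pfkp) to 0.529 (Pgk1).

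p65, the NF-κB subunit that enters the nucleus after LPS, bound 72 regions of the 10 genes in at least 1 list. A peak was present in both replicates at 10 of them in ctrl/ctrl, 14 in IL-4 PT/ctrl, 30 in ctrl/LPS, and 41 in IL-4 PT/LPS. Scores were centred on the 3971 regions that all 8 lists share, whose median itself rose with LPS, so a change is relative to those shared regions. Of 52 regions that could be tested, 14 were higher with LPS alone, against 10103 of 37564 (26.9%). Another 6 were lower, against 7423 (19.8%), but 4 of these had no peak in either group and owed the call to the centring, as did 5714 of the 7423. The calls in both directions made up 46.7% of all regions. The 24 hr IL-4 treatment raised 2 regions of the members, against 1585 calls in either direction (4.22%), 1028 higher and 557 lower. IL-4 before LPS raised 13 and lowered 3, against 9645 (25.7%) and 2123 (5.65%), together 31.3%. The response to LPS differed with IL-4 at 9 regions, against 8733 (23.2%). A region with no peak in 1 of the groups compared entered the test only through the other groups, with the same low value in place of each missing peak. This held for every region higher with LPS except that of Aldoa, so these calls follow in part from the filter and are given as a description. Without IL-4 PT/LPS replicate 2 there were 2 calls for IL-4 before LPS and 1 for the difference in response, and without replicate 1 there were 7 and 3.

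The p65 region of Hif1a with the highest mean score lay at −128.4 kb, intergenic (chr12:73779174-73779933). It scored 26.6 and 28.8 in ctrl/ctrl, 23.2 and 12.3 in IL-4 PT/ctrl, 86.7 and 76.3 in ctrl/LPS, and 79.2 and 74.9 in IL-4 PT/LPS. The 4 LPS samples stood above the 4 others, but relative to the shared regions the change was not called. The strongest p300 and HDAC regions of Hif1a lay there too. In intron 2 of Hk2, at 21.3 kb (chr6:82752833-82753619), p65 was absent in ctrl/ctrl and scored 5.8 and 4.9 in IL-4 PT/ctrl, 60.2 and 62.2 in ctrl/LPS, and 82.2 and 71.9 in IL-4 PT/LPS. It was called with LPS and was 1 of the 2 called with 24 hr IL-4. At 23.6 kb in an intron of Pfkfb3 (chr2:11530025-11530579), p65 scored 11.4 and 7.5 in ctrl/ctrl, 77.8 and 66.3 in ctrl/LPS, and 34.5 and 45.0 in IL-4 PT/LPS, again without a call. At −49.9 kb from Hk2 (chr6:82823959-82824733) it scored 3.7 and 5.5 in ctrl/ctrl, 15.7 and 8.6 in IL-4 PT/ctrl, 7.7 and 5.5 in ctrl/LPS, and 23.9 and 30.1 in IL-4 PT/LPS. Both groups with IL-4 exceeded those without it, and the effect of IL-4 before LPS was a log2 change of 1.78 ± 0.37 (adjusted p = 0.0148).

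Windows of 300 bases at the centre of the p65 regions were searched for the NF-κB motif and for the AP-1 motif, TGANTCA, on both strands. The NF-κB motif was in 3 of 52 member windows (5.8%), against 13.6% of 37556 windows of all genes, and AP-1 was in 20 (38.5%), against 27.9%. The windows of the 4 sites just described are shown on the plus strand with either motif in capitals. Those of Hif1a, Pfkfb3, and Hk2 at 21.3 kb held AP-1, and that of Hk2 at −49.9 kb held NF-κB.
Hif1a at −128.4 kb, chr12:73779328-73779627: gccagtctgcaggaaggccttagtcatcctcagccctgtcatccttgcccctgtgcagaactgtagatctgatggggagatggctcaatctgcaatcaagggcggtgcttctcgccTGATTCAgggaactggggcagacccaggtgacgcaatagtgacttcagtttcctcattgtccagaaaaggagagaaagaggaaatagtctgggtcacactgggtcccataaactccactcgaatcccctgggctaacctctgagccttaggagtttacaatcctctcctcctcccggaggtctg
Hk2 at 21.3 kb, chr6:82753043-82753342: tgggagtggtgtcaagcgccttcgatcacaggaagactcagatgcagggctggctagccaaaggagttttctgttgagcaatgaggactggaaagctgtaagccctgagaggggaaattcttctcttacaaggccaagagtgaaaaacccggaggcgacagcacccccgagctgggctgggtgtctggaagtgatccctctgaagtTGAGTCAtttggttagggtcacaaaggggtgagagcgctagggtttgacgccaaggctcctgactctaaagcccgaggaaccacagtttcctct
Pfkfb3 at 23.6 kb, chr2:11530157-11530456: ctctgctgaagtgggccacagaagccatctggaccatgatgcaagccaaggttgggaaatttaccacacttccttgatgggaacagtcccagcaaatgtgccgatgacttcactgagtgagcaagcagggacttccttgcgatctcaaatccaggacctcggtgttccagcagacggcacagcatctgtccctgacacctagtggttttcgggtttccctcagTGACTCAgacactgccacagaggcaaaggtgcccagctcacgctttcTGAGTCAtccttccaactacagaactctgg
Hk2 at −49.9 kb, chr6:82824204-82824503: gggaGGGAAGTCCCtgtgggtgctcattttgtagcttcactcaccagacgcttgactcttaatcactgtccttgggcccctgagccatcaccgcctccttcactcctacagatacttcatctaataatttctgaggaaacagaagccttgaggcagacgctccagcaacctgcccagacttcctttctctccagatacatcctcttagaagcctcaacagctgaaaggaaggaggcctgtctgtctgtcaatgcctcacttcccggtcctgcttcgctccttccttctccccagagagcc
No promoter of the 10 genes held the NF-κB motif, against 4.5% of all promoters.

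Upstream of Hif1a, p65 regions listed with LPS reached into Prkch. Of 18 regions of Hif1a 15 were tested and 6 passed as higher with LPS alone, against 26.9% of all regions. At −152.0 kb (Prkch intron 10) no sample without LPS had a peak, ctrl/LPS scored 19.1 and 17.4, and IL-4 PT/LPS scored 23.7 and 24.3. The same held at −27.2 kb, with 12.8 and 20.6 in ctrl/LPS and 22.0 and 20.7 in IL-4 PT/LPS, and at −117.1 kb, with 7.5 and 8.9 and then 9.5 and 10.4. At −88.9 kb ctrl/LPS scored 10.6 and 11.7 and IL-4 PT/LPS 26.5 and 37.2, so that IL-4 added a log2 change of 1.23 ± 0.21 (adjusted p = 0.00731). At −11.2 kb ctrl/LPS scored 10.2 and 4.9, a call kept in 2 of the 8 fits that left out 1 sample (adjusted p up to 0.121). With a higher value for missing peaks the log2 changes at −11.2 and −117.1 kb turned to −0.57 and −0.41.

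The tested region nearest to the Hif1a start was at −6.6 kb (chr12:73901150-73901506), with 14.0 and 25.0 in ctrl/LPS, 11.3 and 18.6 in IL-4 PT/LPS, and no peak without LPS. The lists place the Hif1a start at 73907867, but RefSeq also gives a transcript, NM_001313920.1, whose first exon (73901324 to 73901498) lies inside this region. One site behaved otherwise. At −113.6 kb p65 scored 30.5 and 26.5 in ctrl/ctrl and 14.2 and 7.1 in IL-4 PT/ctrl, and 18.9 and 16.9 in ctrl/LPS, which was lower in both raw score and relative terms (log2 change of −1.71, adjusted p = 0.0104).

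Hif1a also held sites seen mainly when IL-4 preceded LPS. At −31.3 kb the IL-4 PT/LPS samples scored 13.7 and 18.3 and no other sample had a peak. At −33.9 kb they scored 27.7 and 21.6 against 4.4 and no peak in ctrl/LPS, and at −69.2 kb 13.0 and 17.1 against no peak and 3.7. At −160.5 kb they scored 6.5 and 10.4, with no peak elsewhere. Over all Hif1a regions, both replicates had a peak at 2 in ctrl/ctrl, 2 in IL-4 PT/ctrl, 9 in ctrl/LPS, and 13 in IL-4 PT/LPS. The p65 lists of IL-4 PT/LPS were also the longest, with 36738 and 38955 peaks against 26305 and 26820 in ctrl/LPS, and the part of depth in these weaker sites was not tested.

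**Figure D4:**
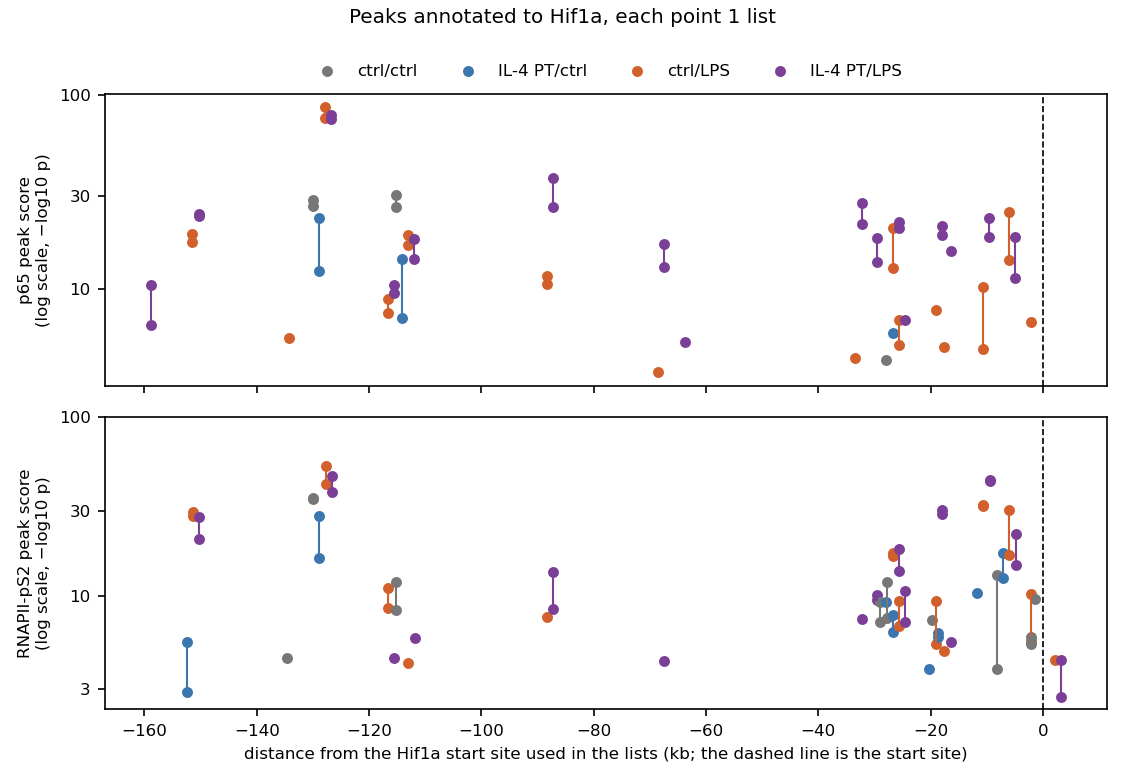
p65 (upper panel) and RNAPII-pS2 (lower panel) peak scores annotated to Hif1a, on log axes of −log10 p, by distance in kb from the listed start (dashed line), with each point 1 list, lines joining replicates, and groups in colours and slightly offset. At −152.0 kb p65 has LPS samples alone, at −128.4 kb all groups have peaks with the LPS samples highest, and at −31.3 kb p65 is seen in IL-4 PT/LPS alone.

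At the other members, p65 was called higher with LPS at regions of Pkm, Pfkp, Hk2, Pfkfb3, Pgk1, and Aldoa, and at none of Slc2a1, Ldha, and Pfkfb4. Pkm had an intronic site at 3.3 kb with no peak without LPS, 22.7 and 22.8 in ctrl/LPS, and 15.0 and 15.8 in IL-4 PT/LPS. It was higher with LPS and lower when IL-4 came first (log2 change of −0.84 ± 0.17, adjusted p = 0.0129), with no overlap between the 2 LPS groups. At −2.8 kb Pkm scored 8.3 and 12.9 in ctrl/LPS and 8.7 and 8.5 in IL-4 PT/LPS. Aldoa, at 255 bp from a start, scored 3.9 in 1 ctrl/ctrl sample, 26.8 and 22.9 in ctrl/LPS, and 16.8 and 17.6 in IL-4 PT/LPS (adjusted p = 0.0138 for LPS). Pfkp gained p65 at −4.0 kb, with 13.8 and 10.9 in ctrl/LPS, and at 16.1 kb, where IL-4 PT/ctrl already scored 4.4 and 6.5 and ctrl/LPS 8.2 and 16.9.

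Slc2a1 had a site in intron 2 at 17.1 kb with 5.4 and 12.7 in ctrl/ctrl, 21.8 and 11.6 in IL-4 PT/ctrl, 33.4 and 21.4 in ctrl/LPS, and 27.5 and 34.4 in IL-4 PT/LPS, which was not called. Pgk1 had 12.2 and 6.7 at 2.4 kb in ctrl/LPS, with no peak there in any other group. Pfkfb3 at −10.3 kb also had peaks with LPS alone (6.4 and 11.2) and none with IL-4 PT/LPS, whereas at −13.8 kb ctrl/LPS had no peak and 2.5, and IL-4 PT/LPS 8.4 and 18.2. At 29.9 kb in Pfkp, ctrl/LPS had no peak and 3.2, and IL-4 PT/LPS had 27.8 and 33.3. Upstream of Ldha, IL-4 PT/LPS scored 13.3 and 18.1 at −11.8 kb and 4.6 and 10 at −6.4 kb, against a single ctrl/LPS peak of 3.7 at the first. Within Hk2, IL-4 PT/LPS had 5.8 and 9.3 at 33.0 kb and 11.8 and 8.2 at 27.2 kb, and no other sample had a peak. Pfkfb4 at −2.0 kb had 4.9 and 3.6 in ctrl/ctrl, 3.1 and no peak in ctrl/LPS, and 6.5 and 9.4 in IL-4 PT/LPS. Relative to the shared regions it was called lower with LPS (adjusted p = 0.0145 in limma). The call rests in part on the value set for the missing peak, and the log2 change ran from −2.71 to −1.04 over the alternatives.

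**Figure D5:**
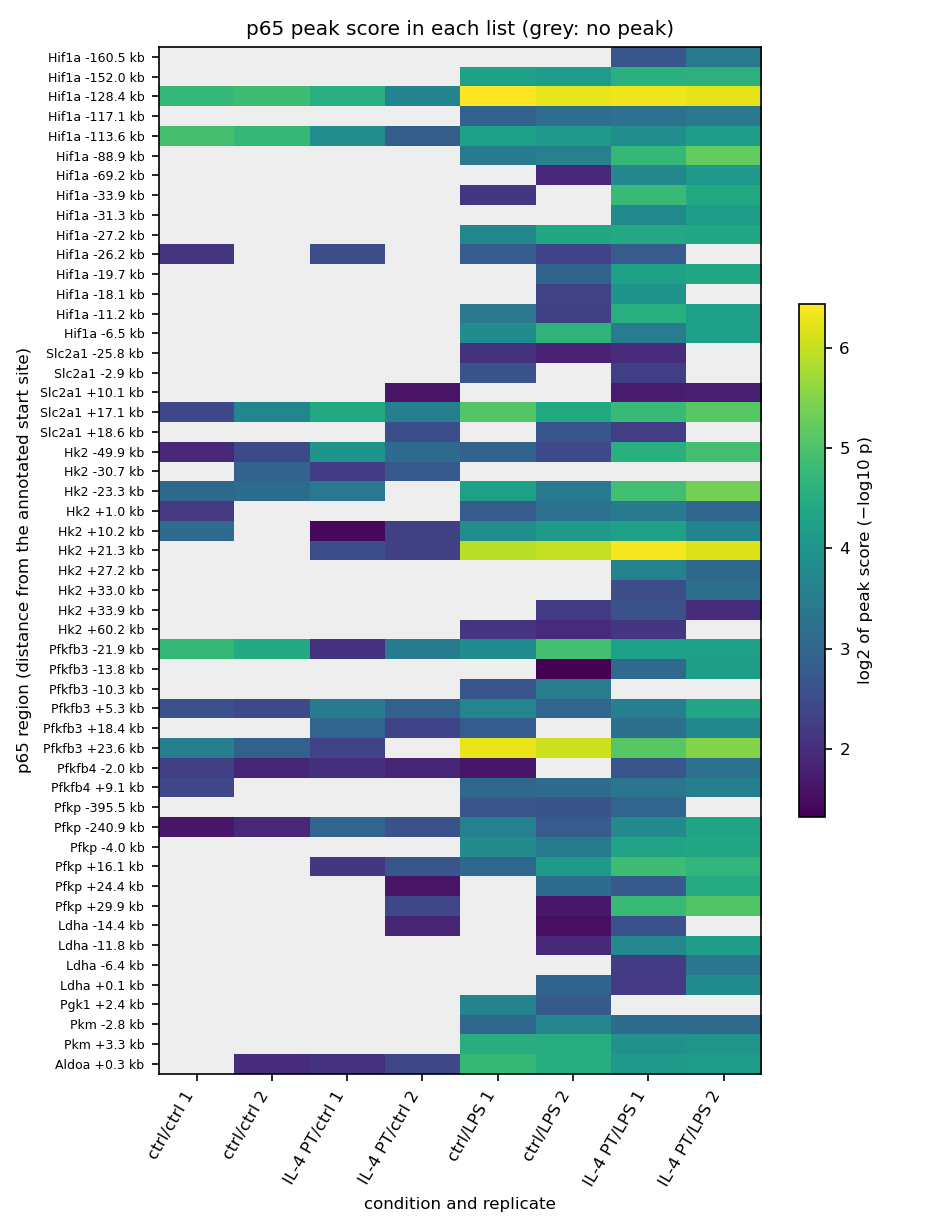
Log2 p65 peak score at the 52 tested regions of the 10 genes (by gene and distance from the start) in the 8 samples, with grey for no peak. Hif1a at −128.4 kb, Hk2 at 21.3 kb, and Pfkfb3 at 23.6 kb are the brightest in the LPS samples, and Hif1a at −31.3 kb and Hk2 at 27.2 and 33.0 kb are coloured in the IL-4 PT/LPS samples alone.

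RNAPII was then read at the same regions. With LPS alone, 15 of 64 tested RNAPII-pS2 regions of the members were higher and 8 lower, against 13091 of 39261 called (33.3%). For RNAPII-pS5, 5 of 47 were higher and 7 lower, against 8240 of 27609 (29.8%). These region tests were added after seeing the data. A p65 region and an overlapping RNAPII-pS2 region were both called higher with LPS for Hif1a at −152.0, −117.1, and −11.2 kb, Hk2 at 21.3 kb, Pkm at 3.3 kb, Pfkp at 16.1 kb, and Pfkfb3 at −10.3 kb. For RNAPII-pS5 this held at Hif1a −152.0 kb and Hk2 21.3 kb. The share over all p65 regions was not computed. At the Hk2 site RNAPII-pS2 was absent in ctrl/ctrl and scored 12.8 and 16.6 in ctrl/LPS and 18.7 and 16.9 in IL-4 PT/LPS. At the Pkm site it scored 22.0 and 15.9 in ctrl/LPS and 12.4 and 11.4 in IL-4 PT/LPS, with no peak without LPS. At −11.2 kb from Hif1a it was absent in ctrl/ctrl, 10.4 in 1 IL-4 PT/ctrl sample, 32.4 and 31.7 in ctrl/LPS, and 43.6 and 44.5 in IL-4 PT/LPS. The Hif1a site at −19.7 kb rose again with IL-4, from 9.4 and 5.4 in ctrl/LPS to 30.3 and 28.7 in IL-4 PT/LPS (log2 change of 2.10 ± 0.48, adjusted p = 0.0318). That call was kept in 2 of the 8 fits that left out 1 sample (adjusted p up to 0.144).

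Some distal RNAPII went down with LPS. At −30.6 kb from Hk2, where H3K27Ac had fallen with 1 hr IL-4, RNAPII-pS5 scored 14.4 and 16.0 in ctrl/ctrl and 16.0 and 16.6 in IL-4 PT/ctrl and was absent in all 4 LPS samples. RNAPII-pS2 scored 39.0 and 26.9 there in ctrl/ctrl and was absent in ctrl/LPS. At −49.8 kb from Hk2, RNAPII-pS5 scored 18.9 and 12.4 in ctrl/ctrl, was absent in ctrl/LPS, and scored 17.7 and 15.1 in IL-4 PT/LPS. At −14.6 kb from Ldha it scored 15.9 and 11.1 in ctrl/ctrl, 4.0 and no peak in ctrl/LPS, and 20.5 and 13.0 in IL-4 PT/LPS. Pfkfb3 showed the same order at 5.2 kb for RNAPII-pS2, with 7.9 and 10.7 in ctrl/ctrl, 25.3 and 37.3 in IL-4 PT/ctrl, no peak in ctrl/LPS, and 20.1 and 19.0 in IL-4 PT/LPS. In each of these 3 regions IL-4 before LPS was called higher than LPS alone, but for Ldha the call was kept in 1 of the 8 fits that left out 1 sample (adjusted p up to 0.155), against all 8 for Hk2 and Pfkfb3.

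Other Pfkfb3 regions moved the other way. RNAPII-pS5 at 23.7 kb, within the strong p65 site, scored 12.8 and 10 in ctrl/LPS and had no peak in any other sample. At 1.9 kb it scored 7.7 and 10.5 in ctrl/LPS alone. At 33.1 kb, RNAPII-pS5 was listed without IL-4 (9.7 and 7.2 in ctrl/ctrl, 12.0 and 9.5 in ctrl/LPS) and in none of the 4 samples with IL-4. For IL-4 before LPS, 4 RNAPII-pS5 regions of the members were higher and 5 lower, against 3844 (13.9%), and 6 RNAPII-pS2 regions were higher and 7 lower, against 6835 (17.4%). For 24 hr IL-4 alone, 2 RNAPII-pS5 regions were higher and 2 lower, against 4623 (16.7%), and 6 RNAPII-pS2 regions were higher and 6 lower, against 8470 (21.6%).

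The wider pathway was counted from lists of genes that are not members. With 1 hr IL-4, none of 14 other glycolysis enzymes, 11 transport and pyruvate genes, 11 HIF regulators, and 10 other HIF-1 targets passed for RNAPII-pS5. With LPS alone, which lowered 1808 of 10610 genes and raised 749, 3 of 12 other glycolysis enzymes fell for RNAPII-pS5 (Pfkfb2, Pgam1, and Bpgm, by log2 changes of −1.74, −1.40, and −1.88) and none rose. Of 10 transport and pyruvate genes, Slc2a6, a glucose transporter of macrophages, rose by 2.36 on the log2 scale, and Slc2a3, Pdha1, and Mpc1 fell by 2.36, 2.25, and 1.93. Of 9 HIF regulators, 4 fell, namely Epas1 (the HIF-2α gene), the asparaginyl hydroxylase Hif1an, the ubiquitin ligase subunit Vhl, and the prolyl hydroxylase Egln1, with log2 changes from −2.27 to −2.99. Ep300, which encodes p300, rose (3.26). Of 11 other HIF-1 targets only Ero1l passed (−3.07). Of 6 tested macrophage markers, Csf1r, Lyz2, and Mertk fell as well (−1.55, −2.12, and −1.63), and 2 had a change above 0. Lyz2 fell again with IL-4 before LPS (−3.09). The neutrophil marker S100a8 rose for RNAPII-pS5 in that comparison (2.04, adjusted p = 0.022). For RNAPII-pS2 its change there was −2.41 without a call, and its difference between LPS responses was −4.14 (adjusted p = 0.046 in limma). Also for RNAPII-pS2, Mertk fell with LPS alone (−1.05) and Cd68 rose with 24 hr IL-4 (1.09). The part of these markers in the members' values was not tested. With LPS alone, the median RNAPII-pS5 change over all genes was −0.40, against 0.45 over the 10 members. Both medians include genes with missing peaks set to the lowest score.

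For RNAPII-pS2 with LPS alone, Hk1 (3.42), Slc2a6 (1.21), and Nos2 (2.80), the nitric oxide synthase of inflammatory macrophages, rose on the log2 scale, and Pfkl (−1.69), Slc2a8 (−2.61), Epas1 (−3.34), and Bnip3 (−2.40) fell. Slc2a6 and Epas1 passed in the same direction for both forms. With IL-4 before LPS, Hif1an rose (3.01) and Egln2 fell (−1.83) for RNAPII-pS5, and Hif3a (−4.08) and Vhl (−3.21) fell and Bnip3l rose (3.17) for RNAPII-pS2. With 24 hr IL-4 alone, Slc2a3 fell for RNAPII-pS5 (−2.76), and for RNAPII-pS2 Hk1 (3.65) and Ddit4 (1.80) rose and Gpi1 (−3.37), Slc2a8 (−2.36), and Hif3a (−3.16) fell. Many of these values rest on peaks listed in 1 group and absent in the other, so the sizes depend on the value set for absence.

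Overlap of the p65 regions with the other lists was counted without a test. A p300 peak overlapped 45 of 52 (86.5%, against 80.7% of all), a PU.1 peak 32 (61.5%, against 62.8%), an H3K27Ac region 25 (48.1%, against 48.9%), and an HDAC3 peak 24 (46.2%, against 35.7%). RNAPII-pS2 of the LPS experiment overlapped 44 (84.6%, against 75.6%).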

How the data were processed

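Peak lists of ChIP-seq from 56 BMDM samples were used, 2 in each of 28 groups. The cells were crosslinked with DSG and formaldehyde. Per the labels, the authors processed reads with BWA 0.7.10, SAMtools 0.1.19, HOMER 4.2, and MACS2 2.0.10 on mm10. For 8 antibodies the deposited score is the −log10 of a p-value or q-value from MACS2, and for H3K27Ac it is the deposited signal of HOMER, in normalized tags per region. Lists were called per sample, and each peak carries the annotation and gene name the authors gave it. A stronger score can reflect deeper sequencing, and a missing peak means only that none passed the cut-off.

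From these lists, scores were summed per gene over peaks not called intergenic (RNAPII and H3K27Ac), or peaks of all samples that overlapped by 1 bp were merged into regions (p300, PU.1, HDACs, and p65). Missing values were set to the lowest score of the antibody, and log2 scores were centred in each sample on the features listed in every sample. Features with a peak in at least 2 samples were fitted with limma 3.58.1 (R 4.3.3), all groups of an experiment together, and called at a Benjamini-Hochberg adjusted p of at most 0.05. An exact permutation test of 2 against 2 samples cannot go below p = 0.333, so none is given. The fits were tested on simulated data. Other processing was done in Python 3.11.15.

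All 10 members were named. Genes of the lists were named when called for RNAPII. Regions were named from those called and those with the highest mean score of a member and factor, and exceptions are stated. Not all such regions are named. Called RNAPII regions left out include some of Hif1a, Pfkfb3, Hk2, and Ldha. Genes like Hif1a were the 3 with the highest Pearson correlation of centred RNAPII-pS5 scores. The members and lists were chosen with earlier results of these data known. Alternatives covered the value for missing peaks, centring, filters, annotation rule, overlap, pairing of replicates, and leaving out each sample. A common floor after centring and the region tests of H3K27Ac and RNAPII were chosen after seeing the data. Sequences came from RefSeq (GRCm38.p6). Protein sequences were not used here. Some genes of the lists are not reported here.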

Additional observations from a re-analysis of the deposited data

Results flagged for a closer look

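The response to LPS differed with and without 24 hr of IL-4 beforehand at 2 genes for RNAPII and at 9 p65 regions, each by an interaction test in limma at an adjusted p of at most 0.05. The 9 regions of 52 tested are a smaller share than the 23.2% of all p65 regions called in this test. For RNAPII-pS5 the difference in log2 response was −3.04 at Pfkp and −2.75 at Pkm, and for RNAPII-pS2 it was −2.32 at Pkm. Leaving out any 1 sample ended these 3 calls.

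For p65 the response was larger with IL-4 at Hif1a −160.5 kb (2.19) and −31.3 kb (3.13), at Hk2 33.0 kb (2.03) and 27.2 kb (2.44), and at Ldha −6.4 kb (1.9). All 5 regions had peaks in IL-4 PT/LPS alone, so they entered the test only through that group, and the calls as well as the sizes rest on the filter and on the value set for a missing peak. The Ldha call was kept in 0 of 6 fits that left out 1 sample (adjusted p from 0.0947 to 0.121). The response was smaller with IL-4 at Pfkfb3 −10.3 kb (−3.16) and Pgk1 2.4 kb (−3.25), which had peaks in ctrl/LPS alone, with the same limit. It was also smaller at Pkm 3.3 kb (−1.03, kept in 2 of 8 such fits) and at Hk2 21.3 kb (−2.15), where IL-4 PT/ctrl already had peaks (5.8 and 4.9) and ctrl/ctrl had none. The Hk2 value rests on the value set for those missing peaks and ran from −2.7 to −0.15 over the alternatives. Its raw score was 60.2 and 62.2 in ctrl/LPS and 82.2 and 71.9 in IL-4 PT/LPS. The p65 lists of IL-4 PT/LPS were the longest, and the part of depth in these differences was not tested.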

How the results depend on the processing

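Scores without reads, 2 samples a group, and missing peaks set to a floor limit every value. Counts below are of member genes or regions called. With an unadjusted p, RNAPII-pS5 had 1 with 1 hr IL-4, 3 with LPS alone, 2 with 24 hr IL-4, and 3 with IL-4 before LPS, and RNAPII-pS2 had 4, 6, and 2 for the last 3 and 2 for the difference between LPS responses. That p gave 17 p300, 7 PU.1, 5 HDAC1, 4 HDAC2, and 3 HDAC3 regions, 8 p65 regions with 24 hr IL-4 and 16 for the difference, 8 and 14 RNAPII-pS5 regions, and 20 and 20 RNAPII-pS2 regions (24 hr IL-4, then IL-4 before LPS). Without centring there were 2 for RNAPII-pS5 with LPS alone, 2 with IL-4 before LPS, and 1 p65 region with 24 hr IL-4.

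Requiring a peak in every sample gave 0 for RNAPII-pS5 with 24 hr IL-4, 3 with IL-4 before LPS, and 0 for the difference, 0 for RNAPII-pS2 in the difference, 8 p300 regions, and 1, 0, and 0 p65 regions (LPS alone, IL-4 before LPS, difference). A floor 4 times the lowest score gave 3, 0, 3, and 1 for RNAPII-pS5 (LPS, 24 hr IL-4, IL-4 before LPS, difference), 4, 2, and 2 for RNAPII-pS2 (LPS, IL-4 before LPS, difference), 1 for PU.1 and 1 for HDAC1, and 31 and 0 p65 regions (LPS, 24 hr IL-4). It reversed p65 with LPS at Hif1a −117.1 kb (−0.41) and −11.2 kb (−0.57), Pfkfb3 −10.3 kb (−0.35), Pkm −2.8 kb (−0.06), and Pgk1 2.4 kb (−0.26), all listed in LPS samples alone. A common floor after centring gave 2 for RNAPII-pS5 with IL-4 before LPS and 8 p300 regions. The upper 50% of peaks gave 0, 0, 2, and 1 for RNAPII-pS5, 1 for RNAPII-pS2 with 1 hr IL-4, 2 and 2 for RNAPII-pS2 with IL-4 before LPS and the difference, and 3, 2, 2, and 2 for PU.1, HDAC1, HDAC2, and HDAC3.

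With intergenic peaks included there were 2, 3, and 1 for RNAPII-pS5 (24 hr IL-4, IL-4 before LPS, difference), 4 for RNAPII-pS2 with LPS, and 4 for H3K27Ac, where Pfkfb4 turned from −0.42 to 0.38. The highest peak per gene gave 0 for the RNAPII-pS5 difference, 0 and 0 for RNAPII-pS2 (24 hr IL-4, difference), and 1 for H3K27Ac. Peaks inside the gene gave 2 for RNAPII-pS5 and 0 for RNAPII-pS2 with IL-4 before LPS, and 0 for the RNAPII-pS2 difference, where Pkm became 0.07. The cause of these moves was not tested.

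Replicate numbers do not pair the samples (correlations of deviations from −0.048 to 0.06). With a replicate block there were 0 and 0 for the RNAPII-pS5 and RNAPII-pS2 differences, 2 for RNAPII-pS2 with 24 hr IL-4, 1 for H3K27Ac, and 1 p65 region with 24 hr IL-4.

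Leaving out 1 sample gave, for LPS alone, 24 hr IL-4, IL-4 before LPS, and the difference, 1 to 2, 0 to 1, 0 to 1, and 0 to 0 for RNAPII-pS5, 0 to 2, 0 to 1, 0 to 1, and 0 to 0 for RNAPII-pS2, and 15 to 21, 0 to 4, 2 to 17, and 1 to 12 for p65. It gave 0 to 2 for H3K27Ac genes, 6 to 10 for its regions, 0 to 10 for p300, and 0 to 0 for PU.1, the HDACs, and RNAPII with 1 hr IL-4. Regions ran 6 to 12, 2 to 4, and 3 to 7 for RNAPII-pS5 and 12 to 22, 5 to 14, and 6 to 12 for RNAPII-pS2.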
